A study of Mus musculus with 12 samples.

Results

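Pericytes and vascular smooth muscle cells are the mural cells that wrap the endothelium of capillaries, arterioles and venules. They are held on the vessel by platelet-derived growth factor B from endothelial cells, which acts on the receptor PDGFRβ, and their identity in arteries depends on NOTCH3. Contractile mural cells carry smooth muscle actin and its partner proteins, and after spinal cord injury cells that express PDGFRβ gather in the scar, where fibroblasts express the same receptor.

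The 9 genes described here, Pdgfrb, Rgs5, Abcc9, Acta2, Tagln, Myh11, Cnn1, Des and Notch3, are widely used to mark these cells. They were chosen by symbol, each matched 1 of the 57180 genes in the deposited tables, and 9 of 9 were among the 17820 genes that passed the low-count filter. Several are also expressed elsewhere, Pdgfrb in fibroblasts, Acta2 and Tagln in myofibroblasts, and Des in skeletal muscle fibres.

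RNA came from female C57BL/6J wild-type mice with a clip-compression injury of the spinal cord at T9-T10, taken 7 days later as the lesion with about 0.5 cm of cord above and below it. OVX8_SCI7 mice had an ovariectomy 8 weeks before the injury, OVX2_SCI7 mice had one 2 weeks before it, and SCI7 mice had the injury alone. Each group had 4 libraries labelled as biological replicates, and where these do not come from separate animals the p-values measure only the spread between samples. All mice carried the injury, no uninjured or sham-operated cord was analysed here, and the age label of 8 weeks is the same in all groups although the time since ovariectomy differs, so time, age, surgery and hormone loss cannot be told apart.

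Libraries held 18279548 to 31781728 counts in OVX8_SCI7, 19223185 to 20371555 in OVX2_SCI7 and 18222809 to 20524251 in SCI7. Mitochondrial transcripts took 2.2 to 3.36% of counts in OVX8_SCI7, 2.36 to 8.33% in OVX2_SCI7 and 5.35 to 9.35% in SCI7. The Spearman correlation, across genes within a library, between a gene's deviation from its mean and the GC content of its transcript was 0.15 to 0.83 in OVX8_SCI7, -0.41 to 0.51 in OVX2_SCI7 and -0.80 to -0.49 in SCI7. Replicate 1 of OVX2_SCI7 held both the highest mitochondrial share and the lowest GC correlation of its group. Endothelial markers, summed over 8 genes with none at 0 in every library of a group, overlapped at 350 to 432 TPM in OVX8_SCI7, 325 to 404 in OVX2_SCI7 and 303 to 479 in SCI7. TPM is a level corrected for transcript length and library size, used below to compare genes, while CPM is a count scaled to library size. Libraries of a gene are compared in the unit given with the values, and some overlaps differ between the units. In whole tissue, fewer cells of a type and less RNA per cell cannot be told apart.

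Rgs5 had the highest mean of the 9 in all groups, and the order below it was set partly by single libraries. Rgs5, a regulator of G protein signalling and a pericyte marker, averaged 97.2 ± 26.5 TPM in OVX8_SCI7, 93.1 ± 24.3 in OVX2_SCI7 and 158 ± 49.9 in SCI7 (SD, n = 4 each). Acta2, Tagln and Pdgfrb followed at means of 45.9 to 55.8 TPM in OVX8_SCI7, 30.2 to 55.8 in OVX2_SCI7 and 28.3 to 134 in SCI7. Notch3 followed in each group, at 15.4 ± 3.21, 13.1 ± 2.36 and 9.5 ± 3.2 TPM in OVX8_SCI7, OVX2_SCI7 and SCI7. Myh11, Des, Abcc9 and Cnn1 had means of 3.65 to 5.96 TPM in OVX8_SCI7, 3.37 to 6.96 in OVX2_SCI7 and 4.42 to 7.45 in SCI7, and neighbours among these 4 overlapped between libraries in every group. In OVX8_SCI7 the libraries of Rgs5 lay above those of Acta2 without overlap, whereas in OVX2_SCI7 and SCI7 the first 2 genes in the order overlapped.

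**Figure D1:**
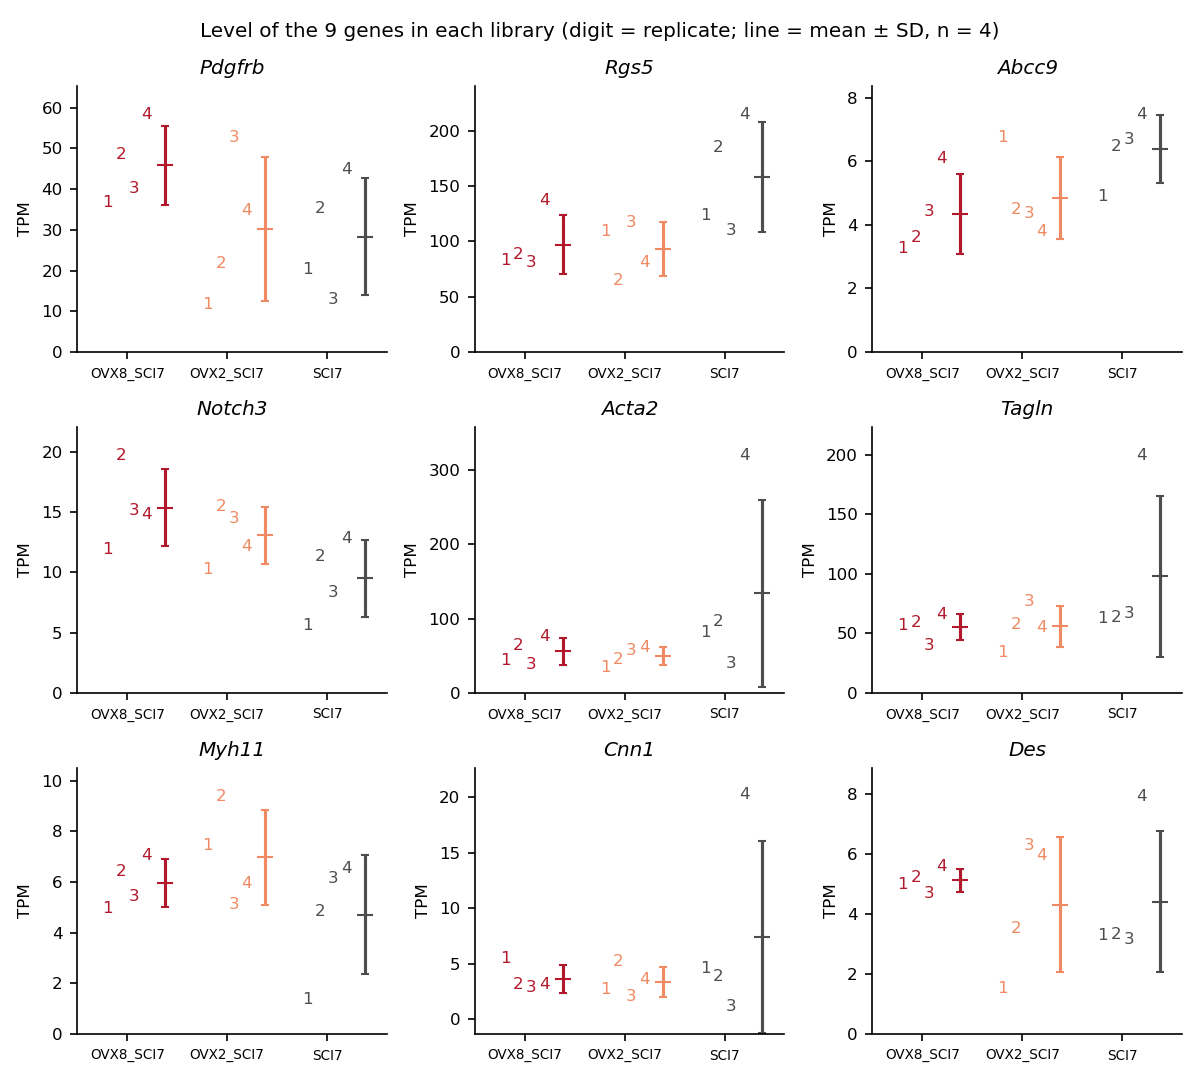
Level in TPM (vertical axes, each from 0 or, for Cnn1, from the lower end of the SD bar) of the 9 genes in OVX8_SCI7, OVX2_SCI7 and SCI7. Digits are the replicates and the lines are mean ± SD over 4 libraries. Replicate 4 of SCI7 stands far above the other SCI7 libraries for Acta2 (319 TPM), Tagln (199 TPM) and Cnn1 (20.2 TPM).

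Notch3 was the member that passed the test, and it was higher in OVX8_SCI7 than in SCI7. Of the 9 genes, 1 passed in this comparison, where 27.5% of all genes tested passed (11.9% higher and 15.6% lower), so the share among the 9 was not above that of all genes. With edgeR's quasi-likelihood test and Benjamini-Hochberg adjustment over 17820 genes, the count of members that passed was 0 for OVX2_SCI7 against SCI7, 0 for OVX8_SCI7 against OVX2_SCI7 and 0 in the joint test of the 3 groups. Over all genes tested, the share that passed was 0% for OVX2_SCI7 against SCI7, 0% for OVX8_SCI7 against OVX2_SCI7 and 14.8% in the joint test. At an unadjusted p under 0.05 there were 3 members of 9 and 32.5% of all genes for OVX2_SCI7 against SCI7, and 0 members and 2.21% of all genes for OVX8_SCI7 against OVX2_SCI7. DESeq2 called 0 members in each of these pairwise comparisons, where it called 20.8% and 0.0337% of all genes, and limma-voom called 0 members, beside 5.01% and 0% of all genes. In the joint test 2 members, Notch3 and Abcc9, and 35.3% of all genes had an unadjusted p under 0.05, and DESeq2 called 1 member (Notch3) and 29.3% of all genes. The median log2 fold change of the 9 was -0.53 for OVX8_SCI7 against SCI7, beside 0.01 over all genes, and -0.29 for OVX2_SCI7 against SCI7, beside 0.04. In each of these comparisons 4 members were above 0 and 5 below. With a correction for GC content and transcript length, described below, the medians were -0.24 and -0.03. The comparisons with SCI7 share the same 4 SCI7 libraries.

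Notch3, a receptor that mural cells use to receive signals from endothelial Jagged ligands, stood at 58.3, 77.5, 65.7 and 65.7 CPM in OVX8_SCI7 replicates 1 to 4, at 46.0, 58.4, 75.4 and 53.5 CPM in OVX2_SCI7 and at 27.6, 44.2, 36.9 and 55.6 CPM in SCI7. The 4 OVX8_SCI7 libraries lay above the 4 SCI7 libraries by a narrow margin, 58.3 against 55.6 CPM, which 19.6% of all genes tested did in that direction, and OVX2_SCI7 overlapped with both. Its log2 fold change was 0.70 (SE 0.21, adjusted p = 0.0318) for OVX8_SCI7 against SCI7, 0.51 (SE 0.21, adjusted p = 0.125) for OVX2_SCI7 against SCI7 and 0.20 (SE 0.21, adjusted p = 0.999) for OVX8_SCI7 against OVX2_SCI7. In TPM the groups overlapped, at 11.9 to 19.7 in OVX8_SCI7 and 5.58 to 12.8 in SCI7. Over the other settings the adjusted p for OVX8_SCI7 against SCI7 ran from 0.0111 to 0.98. It was 0.0763, 0.0669 and 0.076 without replicates 1, 2 and 3 of SCI7 in turn, and 0.0509, 0.0952 and 0.0734 without replicates 1, 2 and 3 of OVX8_SCI7. Notch3 has the highest transcript GC content of the 9 at 59.6%, and after correcting each library for its trend with GC content and length (the offset) the log2 fold change was -0.01 (SE 0.17, adjusted p = 0.98). Its deposited counts were not whole in 12 of 12 libraries, so reads were split between genes, and the predicted gene Gm17276 overlaps its exons on the opposite strand.

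Pdgfrb had its highest group mean in OVX8_SCI7, with a spread that kept it short of the threshold. Its level was 36.6, 48.5, 40.0 and 58.3 TPM in OVX8_SCI7, 11.6, 21.8, 52.7 and 34.7 TPM in OVX2_SCI7 and 20.2, 35.2, 12.9 and 44.8 TPM in SCI7, in the order of replicates 1 to 4. In TPM replicates 2 and 4 of OVX8_SCI7 lay above the 4 SCI7 libraries, and in CPM replicate 1 did so too. The groups overlapped in both units. The log2 fold change was 0.74 (SE 0.47, adjusted p = 0.242) for OVX8_SCI7 against SCI7, 0.29 (SE 0.47, adjusted p = 0.689) for OVX2_SCI7 against SCI7 and 0.45 (SE 0.47, adjusted p = 0.999) for OVX8_SCI7 against OVX2_SCI7. With the GC and length offset the value for OVX8_SCI7 against SCI7 was 0.30 (SE 0.45), which is lower by over 1.5 times. Markers of perivascular and meningeal fibroblasts, summed over 9 genes with none at 0 in every library of a group, ran from 3526.2 to 7148.4 TPM in OVX8_SCI7, 573 to 8810.8 in OVX2_SCI7 and 742 to 4169.8 in SCI7. In OVX2_SCI7, Pdgfrb and this sum were both lowest in replicate 1 and highest in replicate 3, and in SCI7 both were lowest in replicate 3 and highest in replicate 4. In OVX8_SCI7 both were highest in replicate 4, but in TPM Pdgfrb was lowest in replicate 1 and the sum in replicate 3. In CPM Pdgfrb was lowest in replicate 3 of OVX8_SCI7, at 119 CPM against 131 in replicate 1. Their part in the Pdgfrb values was not tested.

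Rgs5 and Abcc9, both used as pericyte markers in the central nervous system, had lower means in both ovariectomy groups than in SCI7 and did not pass the test. Rgs5 stood at 82.5, 88.3, 81.3 and 137 TPM in OVX8_SCI7, 109, 64.9, 117 and 81.3 TPM in OVX2_SCI7 and 123, 185, 110 and 215 TPM in SCI7. In TPM the groups overlapped through replicate 4 of OVX8_SCI7 and replicate 3 of OVX2_SCI7, the highest of their groups, and through replicates 1 and 3 of SCI7. Rgs5 had log2 fold changes of -0.67 (SE 0.28, unadjusted p = 0.0323, adjusted p = 0.0862) for OVX8_SCI7 against SCI7 and -0.63 (SE 0.28, unadjusted p = 0.0419, adjusted p = 0.139) for OVX2_SCI7 against SCI7. Between the ovariectomy groups it was -0.04 (SE 0.28). Rgs5 has the lowest transcript GC content of the 9 at 41.1%, and with the GC and length offset its log2 fold changes against SCI7 were 0.01 (SE 0.27) in OVX8_SCI7 and -0.03 (SE 0.27) in OVX2_SCI7.

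Abcc9 encodes SUR2, the regulatory subunit of the ATP-sensitive potassium channel of mural cells. It stood at 3.25, 3.6, 4.41 and 6.08 TPM in OVX8_SCI7, 6.74, 4.49, 4.35 and 3.8 TPM in OVX2_SCI7 and 4.9, 6.47, 6.67 and 7.47 TPM in SCI7. Among the OVX8_SCI7 libraries only replicate 4 reached into the SCI7 range, and in OVX2_SCI7 only replicate 1 did. The log2 fold change was -0.53 (SE 0.19, adjusted p = 0.0559) for OVX8_SCI7 against SCI7, with adjusted p from 0.0219 to 0.458 over the other settings (0.0219 without replicate 1 of OVX2_SCI7 and 0.0267 without replicate 4 of OVX8_SCI7), and -0.29 (SE 0.19, adjusted p = 0.308) for OVX2_SCI7 against SCI7. With the GC and length offset it was -0.24 (SE 0.15) and 0.01 (SE 0.15). Kcnj8, which encodes Kir6.1, the pore subunit that pairs with SUR2, averaged 4.47 ± 0.698 TPM in OVX8_SCI7, against 3.15 ± 0.709 TPM in SCI7 (SD, n = 4 each). Its log2 fold change was 0.54 (SE 0.18, edgeR adjusted p = 0.0427), opposite in sign to that of Abcc9, which did not pass. With the offset Kcnj8 was at 0.14 (SE 0.16, edgeR adjusted p = 0.688). Its libraries overlapped, at 4.8 to 6.94 CPM in OVX8_SCI7 and 3.59 to 5.1 CPM in SCI7. Transcript GC content is 53.3% for Kcnj8 and 46.2% for Abcc9. The other subunits of this channel family measured, Abcc8 and Kcnj11, did not pass.

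The contractile members Acta2, Tagln and Cnn1 had lower means in OVX8_SCI7 and OVX2_SCI7 than in SCI7, and the size of these differences depended on 1 SCI7 library. The direction of their log2 fold changes depended on that library as well, except for Acta2 in OVX2_SCI7 against SCI7. Acta2, smooth muscle actin, stood at 43.8, 64.2, 38.7 and 76.4 TPM in OVX8_SCI7, 33.5, 45.6, 56.9 and 61.1 TPM in OVX2_SCI7 and 80.6, 96.5, 39.1 and 319 TPM in SCI7. SCI7 replicate 4 was above every other library, and in TPM replicate 3 was at the level of the lowest OVX8_SCI7 library. In CPM replicates 1 and 2 of SCI7, at 67.1 and 64.9, lay inside the range of OVX2_SCI7, at 24.8 to 74.4. On the log2 scale the change was -0.80 (SE 0.56, adjusted p = 0.284) for OVX8_SCI7 against SCI7 and -0.89 (SE 0.56, adjusted p = 0.281) for OVX2_SCI7 against SCI7. Without replicate 4 of SCI7 these values were 0.08 and -0.01. In TPM the means stayed lower without it, at 55.8 in OVX8_SCI7 and 49.3 in OVX2_SCI7, against 72.1 over the other SCI7 libraries.

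Tagln encodes transgelin, an actin-binding protein of smooth muscle. Its level was 56.6, 59.5, 39.9 and 65.7 TPM in OVX8_SCI7, 34.4, 57.5, 76.9 and 54.6 TPM in OVX2_SCI7 and 62.9, 63.3, 66.7 and 199 TPM in SCI7. Apart from SCI7 replicate 4, the SCI7 libraries lay close together and inside the range of OVX2_SCI7. The log2 fold change was -0.64 (SE 0.44, adjusted p = 0.278) for OVX8_SCI7 against SCI7 and -0.58 (SE 0.44, adjusted p = 0.365) for OVX2_SCI7 against SCI7, and 0.08 and 0.13 without replicate 4 of SCI7. Mean TPM was 55.4 in OVX8_SCI7 and 55.8 in OVX2_SCI7, against 64.3 over the SCI7 libraries without that replicate. With the GC and length offset the fold changes were -0.95 (SE 0.38, unadjusted p = 0.0289, adjusted p = 0.273) and -0.87 (SE 0.38, unadjusted p = 0.042, adjusted p = 0.432), and over the other settings the adjusted p ran from 0.181 to 0.853 and from 0.233 to 0.783. The counts of Tagln were not whole in 12 of 12 libraries, and Pcsk7 and Gm48529 overlap its exons on the opposite strand. The sources used here do not state whether counting used strand.

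Cnn1 encodes calponin, which binds actin and tropomyosin in mature smooth muscle, and it was the least abundant member in counts. Its counts were 60, 98, 40 and 45 in OVX8_SCI7, 26, 55, 45 and 87 in OVX2_SCI7 and 31, 39, 13 and 212 in SCI7. SCI7 held both the lowest and the highest library. Its log2 fold change was -0.58 (SE 0.66, adjusted p = 0.518) for OVX8_SCI7 against SCI7 and -0.48 (SE 0.66, adjusted p = 0.63) for OVX2_SCI7 against SCI7, and it turned to 0.77 and 0.87 without replicate 4 of SCI7. Mean TPM was then 3.65 in OVX8_SCI7 and 3.37 in OVX2_SCI7, against 3.19 in SCI7.

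Replicate 4 was the highest SCI7 library for 9 of the 9 members, against 32.2% of all genes tested. Relative to the median of the other SCI7 libraries in CPM, it was higher by 6.54 times for Cnn1, 3.61 times for Tagln, 3.52 times for Acta2 and 2.54 times for Des. The ratio was 1.82 for Pdgfrb, 1.51 for Notch3, 1.43 for Rgs5, 1.3 for Myh11 and 1.11 for Abcc9. Among 14 further contractile and cytoskeletal genes of smooth muscle it was the highest SCI7 library for 11, and among 14 further pericyte genes for 7. It was also the highest for 5 of 8 endothelial markers, 4 of 9 fibroblast markers and 1 of 10 skeletal muscle markers. Enteric smooth muscle actin Actg2, named after its values were seen, stood there at 38.3 TPM, against 0.45 to 7.78 TPM in the other SCI7 libraries.

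**Figure D2:**
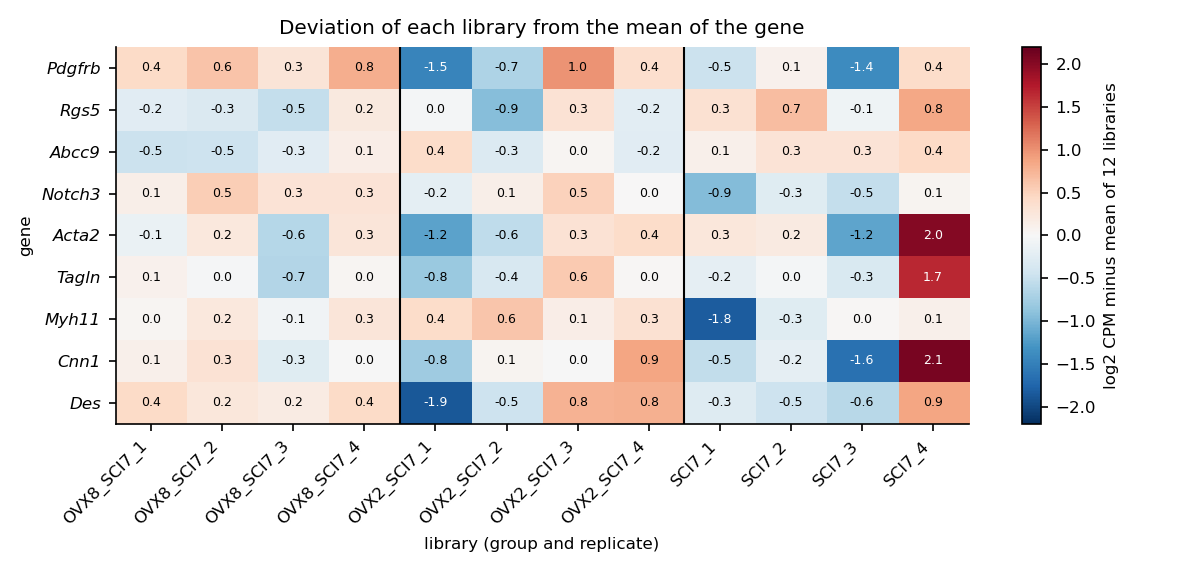
Deviation of each library (columns, grouped as OVX8_SCI7, OVX2_SCI7 and SCI7) from the mean of 12 libraries for each of the 9 genes (rows), in log2 CPM. Replicate 4 of SCI7 is high for Acta2 (2.0), Tagln (1.7) and Cnn1 (2.1), and replicate 1 of OVX2_SCI7 is low for Pdgfrb (-1.5), Acta2 (-1.2) and Des (-1.9).

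Myh11, the smooth muscle myosin heavy chain, had log2 fold changes above 0 against SCI7, where those of Acta2, Tagln and Cnn1 were below 0. This contrast depended on replicate 4 of SCI7, without which these 3 were at 0.08, 0.08 and 0.77 for OVX8_SCI7. Myh11 stood at 21.5, 24.5, 19.7 and 25.2 CPM in OVX8_SCI7, 27.5, 31.8, 23.1 and 26.3 CPM in OVX2_SCI7 and 5.76, 17.3, 21.3 and 22.5 CPM in SCI7. The 4 OVX2_SCI7 libraries lay above the 4 SCI7 libraries, which 6.13% of all genes tested did in that direction, whereas OVX8_SCI7 and SCI7 overlapped. The log2 fold change was 0.44 (SE 0.32, adjusted p = 0.302) for OVX8_SCI7 against SCI7 and 0.70 (SE 0.32, unadjusted p = 0.0479, adjusted p = 0.15) for OVX2_SCI7 against SCI7. Replicate 1 of SCI7 was far below the rest, and without it the value for OVX2_SCI7 against SCI7 was 0.40. In TPM, which is divided by transcript length, OVX2_SCI7 at 5.12 to 9.37 and SCI7 at 1.35 to 6.54 overlapped.

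Des encodes desmin, an intermediate filament of pericytes and of all muscle. It stood at 8.9, 7.85, 7.49 and 8.85 CPM in OVX8_SCI7, 1.75, 4.78, 11.3 and 11.4 CPM in OVX2_SCI7 and 5.39, 4.78, 4.31 and 12.2 CPM in SCI7. The OVX8_SCI7 libraries were close to each other and lay inside the range of both other groups. The log2 fold change was 0.31 (SE 0.49, adjusted p = 0.651) for OVX8_SCI7 against SCI7 and 0.13 (SE 0.49, adjusted p = 0.871) for OVX2_SCI7 against SCI7, and both were below 0 with the GC and length offset, at -0.25 (SE 0.43) and -0.35 (SE 0.44). Markers of skeletal muscle fibres, 10 genes with none at 0 in every library of a group, summed to 18.1 to 132 TPM in OVX8_SCI7, 5.84 to 39.8 in OVX2_SCI7 and 13.6 to 34.2 in SCI7. Of these, Actn3, Tnni2 and Myh4 rose in OVX8_SCI7 against SCI7, with log2 fold changes of 2.01, 1.86 and 3.66 (SE 0.47, 0.58 and 1.22; edgeR adjusted p = 0.0153, 0.0352 and 0.0436). Myh4 stood at 4.03, 0.06, 0.69 and 1.39 TPM in OVX8_SCI7 and 0.01, 0.26, 0.27 and 0.02 TPM in SCI7, so replicate 1 of OVX8_SCI7 was the highest and the groups overlapped. Over the other settings the adjusted p of Myh4 ran from 0.0243 to 0.242. Their part in the Des values was not tested.

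Members of low and of high GC content differed in the direction of their fold changes. For OVX8_SCI7 against SCI7, the 5 members of lowest GC content, from Rgs5 at 41.1% through Abcc9, Acta2 and Cnn1 to Tagln at 52.5%, had log2 fold changes below 0. The 4 of highest GC content, from Myh11 at 53.1% through Pdgfrb and Des to Notch3 at 59.6%, had values above 0, and the same 5 and 4 genes split this way for OVX2_SCI7 against SCI7. Across 15087 protein-coding genes the Spearman correlation of log2 fold change with GC content was 0.82 for OVX8_SCI7 against SCI7 and 0.79 for OVX2_SCI7 against SCI7, and genes are not independent replicates. With the offset these correlations were 0.01 and 0.03, 0 members and 0 genes passed for OVX8_SCI7 against SCI7, and 0 members and 8 genes (0.0449%) for OVX2_SCI7 against SCI7. For OVX8_SCI7 against SCI7, Acta2, Tagln and Cnn1 stood at -0.83, -0.95 and -0.76 with the offset (edgeR adjusted p = 0.479, 0.273 and 0.579). Those of Rgs5, Abcc9 and Notch3 were between -0.24 and 0.01. The offset fit included replicate 4 of SCI7. Without that library, and with no offset, Acta2, Tagln and Cnn1 were at 0.08, 0.08 and 0.77. Whether the GC trend arose in the tissue or in library preparation was not tested.

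**Figure D3:**
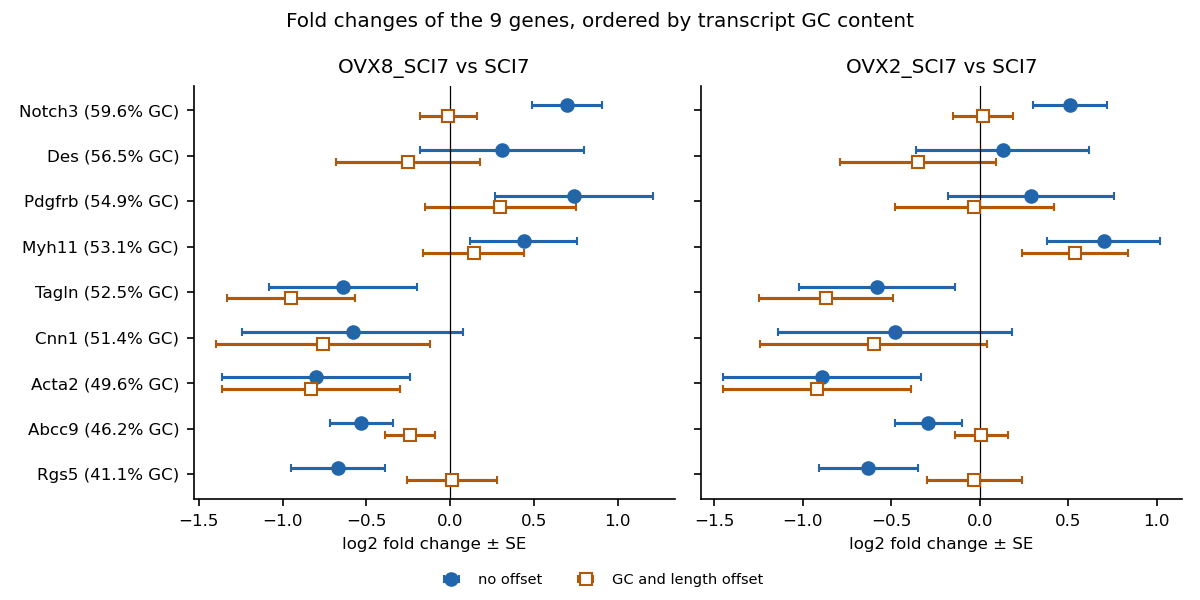
Log2 fold change ± SE (horizontal axes) of the 9 genes for OVX8_SCI7 against SCI7 and OVX2_SCI7 against SCI7, ordered by transcript GC content, without (filled circles) and with (open squares) the GC and length offset. In the left panel Rgs5 and Notch3, at the ends of the GC order, go to 0.01 and -0.01 with the offset, whereas Acta2, Cnn1 and Tagln stay below 0. No member passes with the offset, and this fit includes replicate 4 of SCI7.

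Levels relative to Pdgfrb within a library, a measure chosen after the values were seen and given as a description, were lower in OVX8_SCI7 than in SCI7 for 4 of the 8 other members, Rgs5, Abcc9, Acta2 and Tagln. The ratio of Rgs5 to Pdgfrb in TPM was 2.25, 1.82, 2.03 and 2.34 in OVX8_SCI7, 9.38, 2.98, 2.23 and 2.34 in OVX2_SCI7 and 6.08, 5.26, 8.57 and 4.8 in SCI7. The ratio of Acta2 to Pdgfrb was 0.966 to 1.32 in OVX8_SCI7, 1.08 to 2.89 in OVX2_SCI7 and 2.74 to 7.13 in SCI7, and that of Tagln was 0.998 to 1.54, 1.46 to 2.96 and 1.8 to 5.19 in the same groups. Of the 8 ratios to Pdgfrb, 4 did not overlap between OVX8_SCI7 and SCI7, these 3 and that of Abcc9. The Abcc9 ratio was 0.0743 to 0.11 in OVX8_SCI7 and 0.167 to 0.519 in SCI7. The share of all genes with such a separation was not computed, so the count does not set these members apart. Pdgfrb, the denominator, itself had a log2 fold change of 0.74 in this comparison. The ratios of Myh11, Cnn1, Des and Notch3 overlapped, and that of Des was 0.0957 to 0.137 in OVX8_SCI7 and 0.0938 to 0.245 in SCI7. For Rgs5, Acta2 and Tagln replicate 1 of OVX2_SCI7 lay within or above the SCI7 range. The ratio of Notch3 to Pdgfrb was 0.254 to 0.406 in OVX8_SCI7, 0.275 to 0.881 in OVX2_SCI7 and 0.276 to 0.65 in SCI7. Rgs5, Acta2 and Tagln have a lower transcript GC content than Pdgfrb, at 41.1, 49.6 and 52.5% against 54.9%, and the part of the GC trend in these ratios was not tested.

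**Figure D4:**
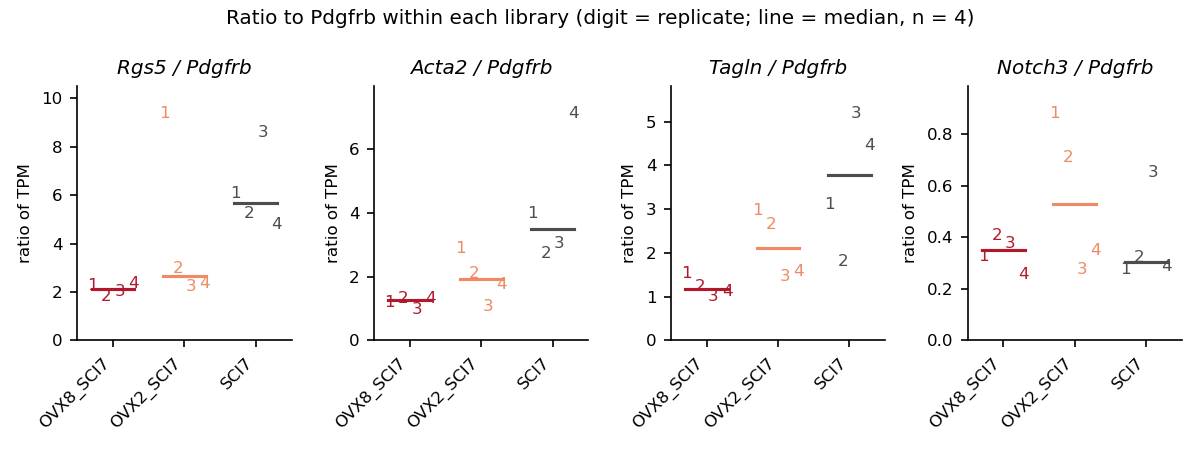
Ratio of the TPM of Rgs5, Acta2, Tagln and Notch3 to that of Pdgfrb within each library (vertical axes, no unit) in OVX8_SCI7, OVX2_SCI7 and SCI7. Digits are replicates and lines are medians over 4 libraries. The Rgs5 ratio has a median of 2.14 in OVX8_SCI7, 2.66 in OVX2_SCI7 and 5.67 in SCI7, with replicate 1 of OVX2_SCI7 at 9.38.

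Across the 12 libraries the members varied in several patterns. The root-mean-square difference of log2 CPM, each gene centred on its own mean, was smallest for Rgs5 with Abcc9 at 0.33, Acta2 with Tagln at 0.37, Pdgfrb with Des at 0.40 and Acta2 with Cnn1 at 0.43, and largest for Acta2 with Myh11 at 1.07, among 36 pairs. Of 12469 candidates, each averaging 5 CPM or more, those most like Pdgfrb by this measure were Shc1 at 0.11, Ptges at 0.13 and Cdh5 at 0.14. Cdh5 stood at 56.8 ± 13.6 TPM in OVX8_SCI7, 37.9 ± 23.6 in OVX2_SCI7 and 36.3 ± 23.1 in SCI7 (SD, n = 4 each). Those most like Acta2 were Knstrn at 0.35, Prc1 at 0.36 and Tpm4 at 0.37.

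Acta2, Tagln and Cnn1 were all high in replicate 4 of SCI7, and many smooth muscle genes are regulated by serum response factor through CArG boxes, CC and GG around a core of A and T. Promoters of 6 of the 9 members (all but Pdgfrb, Tagln and Myh11), 250 bases upstream of the start in RefSeq on GRCm38.p6, were searched on both strands. That of Acta2 is shown for its matches, that of Cnn1 as another gene high in that library and that of Notch3 as the member that passed the test, 5′ to 3′, with matches that allow 1 G or C in the core in capitals.
Acta2, chr19:34255374-34255623, minus strand: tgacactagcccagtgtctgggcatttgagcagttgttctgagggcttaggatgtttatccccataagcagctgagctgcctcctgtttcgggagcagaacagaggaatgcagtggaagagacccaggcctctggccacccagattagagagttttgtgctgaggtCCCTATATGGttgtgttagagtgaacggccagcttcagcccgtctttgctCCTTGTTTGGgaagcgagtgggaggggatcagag
Cnn1, chr9:22099003-22099252, plus strand: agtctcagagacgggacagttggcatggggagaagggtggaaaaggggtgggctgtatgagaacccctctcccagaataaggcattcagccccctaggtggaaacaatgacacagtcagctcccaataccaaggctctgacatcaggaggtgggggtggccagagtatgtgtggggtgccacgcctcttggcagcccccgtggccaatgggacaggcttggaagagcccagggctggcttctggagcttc
Notch3, chr17:32166891-32167140, minus strand: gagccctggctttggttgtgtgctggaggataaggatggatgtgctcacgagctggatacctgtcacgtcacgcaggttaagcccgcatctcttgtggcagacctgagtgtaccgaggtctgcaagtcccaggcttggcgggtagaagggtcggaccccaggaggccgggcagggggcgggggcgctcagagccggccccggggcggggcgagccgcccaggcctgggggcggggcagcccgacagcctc
Acta2 held 2 such matches, at 84 to 75 and 34 to 25 bases before the start, and the other 5 promoters held 0. Of 32851 promoters of this length 8.59% held at least 1 and 0.67% held 2 or more. With a core of A and T alone, 1.47% of promoters and 0 of the 6 held a match, and the relaxed core was chosen after that search. A match describes the sequence, not a binding site, and these coordinates are of an older build than the GRCm39 named in the submitters' processing notes.

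The ligands of the PDGF receptors split for OVX8_SCI7 against SCI7. Of 5 genes tested, the ligands and the sister receptor gene Pdgfra, 1 rose and 1 fell, beside 11.9% and 15.6% of all genes tested. Pdgfb, the endothelial ligand that holds pericytes on the vessel through Pdgfrb, rose to 22.6 ± 3.94 TPM in OVX8_SCI7, against 11.2 ± 3.84 TPM in SCI7 (SD, n = 4 each; log2 fold change 1.06, SE 0.29, edgeR adjusted p = 0.0229), with no overlap in CPM. Pdgfd, another ligand of this receptor, fell to 10.7 ± 1.37 TPM in OVX8_SCI7, against 20.5 ± 4.31 TPM in SCI7 (log2 fold change -1.09, SE 0.31, edgeR adjusted p = 0.0256). Pdgfb has a GC content of 60% and Pdgfd of 39.9%, and with the offset the values were 0.27 (SE 0.20) and -0.27 (SE 0.22).

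Of 13 Notch ligands, other receptors and target genes, 4 rose and 2 fell for OVX8_SCI7 against SCI7, where 11.9% of all genes tested rose and 15.6% fell. The ligands Jag2 and Dll1 and the receptors Notch1 and Notch4 rose, with Jag2 at 15.9 ± 3.42 TPM in OVX8_SCI7 and 7.73 ± 2.44 TPM in SCI7 (log2 fold change 0.75, SE 0.24, edgeR adjusted p = 0.0369) and Notch1 at 18.1 ± 3.43 and 12.1 ± 7.01 TPM in the same groups (0.67, SE 0.20, adjusted p = 0.0301). With the offset neither passed, and the direction of Jag2 turned: it was at -0.11 (SE 0.16, adjusted p = 0.761), and Notch1 at 0.07 (SE 0.14, adjusted p = 0.818), where adjusted p over the other settings ran from 0.0154 to 0.761 and from 0.00974 to 0.818. The target gene Hey2, a repressor found in arteries, and Rbpj, the DNA-binding partner of the cleaved receptors, fell. The other target genes did not pass, and they did not share the direction of Hey2. Hes1 at 9.99 to 16 CPM in OVX8_SCI7 lay above SCI7 at 4.74 to 8.03 CPM. Heyl at 24.8 to 28.1 CPM in OVX8_SCI7 lay above SCI7 at 8.29 to 19 CPM. Of all genes tested, 19.6% lay higher without overlap in this way. Hey1 and Nrarp overlapped between these groups. Hey2 stood at 8.66 ± 1.44 TPM in OVX8_SCI7 and 18.1 ± 3.22 TPM in SCI7 (log2 fold change -1.08, SE 0.25, edgeR adjusted p = 0.0146), with no overlap, and -0.79 (SE 0.25, adjusted p = 0.186) with the offset, where its adjusted p over the other settings ran from 0.000564 to 0.186. Rbpj stood at 24.2 ± 3.06 TPM in OVX8_SCI7 and 36.6 ± 6.53 TPM in SCI7 (-0.55, SE 0.15, adjusted p = 0.0239), and -0.06 (SE 0.13) with the offset. The 13 genes had a median log2 fold change of 0.68, beside 0.01 over all genes tested, and of 0.17 with the offset.

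Among serum response factor and its coactivators, 2 of 4 rose for OVX8_SCI7 against SCI7, beside 11.9% of all genes tested. The muscle genes among the members did not share a direction. Acta2, Tagln and Cnn1 had values below 0, but 0.08, 0.08 and 0.77 without replicate 4 of SCI7. Myh11 and Des had values above 0, at 0.44 and 0.31. Srf stood at 30.0 ± 5.44 TPM in OVX8_SCI7 and 18.5 ± 5.62 TPM in SCI7 (log2 fold change 0.93, SE 0.26, edgeR adjusted p = 0.0255), and at -0.04 (SE 0.16) with the offset. Mrtfa, a coactivator that responds to actin, stood at 22.4 ± 3.91 TPM in OVX8_SCI7 and 11.4 ± 3.82 TPM in SCI7 (1.06, SE 0.26, adjusted p = 0.0165), and at 0.35 (SE 0.19) with the offset. Of the 14 further contractile genes, 1 rose and 1 fell, fewer than the 27.5% of all genes tested. Ppp1r14a, an inhibitor of myosin phosphatase that oligodendrocytes also express, rose to 64.0 ± 13.7 TPM in OVX8_SCI7, against 30.8 ± 1.5 TPM in SCI7 (1.04, SE 0.23, adjusted p = 0.0145; 0.08 with the offset). Synpo2, an actin-bundling protein, fell to 4.28 ± 0.534 TPM in OVX8_SCI7, against 7.35 ± 1.04 TPM in SCI7 (-0.43, SE 0.14, adjusted p = 0.0374; -0.25 with the offset).

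Of 14 further pericyte genes, 2 rose and 1 fell for OVX8_SCI7 against SCI7, no more than the 27.5% of all genes tested that passed. Besides Kcnj8, the matrix protein gene Vtn rose to 163 ± 23 TPM in OVX8_SCI7, against 100 ± 19 TPM in SCI7 (log2 fold change 0.66, SE 0.21, edgeR adjusted p = 0.0376; 0.09 with the offset). Ebf1, a transcription factor of mural cells, fell to 10.4 ± 1.36 TPM in OVX8_SCI7, against 18.3 ± 7 TPM in SCI7 (-0.93, SE 0.32, adjusted p = 0.0466; -0.36 with the offset). Among 16 genes of mural recruitment and vascular tone, 0 rose and 1 fell, fewer than the 27.5% of all genes tested. This was the endothelin receptor gene Ednrb, which astrocytes also express and which stood at 52.0 ± 8.66 TPM in OVX8_SCI7 and 103 ± 7.82 TPM in SCI7 (-1.01, SE 0.32, adjusted p = 0.0372; -0.55 with the offset). For OVX2_SCI7 against SCI7 and OVX8_SCI7 against OVX2_SCI7, 0 genes of these lists and 0 of all genes tested passed with edgeR. For OVX2_SCI7 against SCI7 the log2 fold changes included 1.05 (SE 0.23, adjusted p = 0.052) for Ppp1r14a, -0.83 (SE 0.24, adjusted p = 0.0579) for Hey2 and 0.61 (SE 0.21, adjusted p = 0.0793) for Vtn, and each of these passed under at least 1 other setting, where adjusted p ran from 0.00189 to 0.647, from 0.00505 to 0.444 and from 0.00311 to 0.896. With the offset 0 genes of these lists passed in any comparison.

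Markers of other cells were counted for OVX8_SCI7 against SCI7 as well, where 11.9% of all genes tested passed as higher and 15.6% as lower. With the offset 0 of these markers passed. Endothelial markers had 0 of 8 higher and 1 lower (Slco1a4), fibroblast markers 0 of 9 in either direction, skeletal muscle markers 3 of 10 higher, and macrophage and microglia markers 2 of 7 higher (Trem2 and Csf1r). Astrocyte, Schwann cell and sensory neuron markers, 5 genes each, had 0 in either direction.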

How the data were processed

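The authors deposited expected counts and TPM per gene, estimated with RSEM 1.3.3 after fastp 0.23.4 and HISAT2 2.2.1, with GRCm39 as the build, per the submitters' processing notes; their FPKM table and the group means in each table were not used here. The sources used here do not give the library kit or strand setting. Deposited counts were rounded to whole numbers, filtered by filterByExpr, scaled by TMM and fitted over all 12 libraries with group as the only term by edgeR 4.0.16's robust quasi-likelihood test (R 4.3.3), with Benjamini-Hochberg adjustment over 17820 genes and a threshold of 0.05. CPM used TMM-scaled totals. SE is the absolute log2 fold change divided by the square root of F. The 525 genes without a symbol held 0.0786 to 0.158% of counts and were kept. A floor of 3 counts was 0.0944 to 0.165 CPM, which covers counting error only. The fits were tested on simulated data.

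Other settings were DESeq2 1.42.0 and its size factors, limma 3.58.1 (voom, and trend on deposited TPM as log2 with a pseudocount of 1 or 0.1), no low-count filter, a stricter one (1 CPM in at least 4 libraries, and 50 counts on average), the 8 libraries of a comparison alone, a replicate block, an offset, libraries left out in turn, and replicates 1 and 2 of OVX2_SCI7 left out together. The offset was a natural spline (5 degrees of freedom) of each library on GC content and length of the longest protein-coding transcript in GENCODE M21, fitted over genes of at least 5 CPM.

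The members and lists were chosen with earlier results of these data known. All 9 members are named. Of each list, genes that passed are named (at most the 4 with the smallest joint p) or, where fewer than 2 passed, may be the 2 with the smallest joint p, and for Pdgfrb and Acta2 the 3 most alike genes. Dll1, Notch4, Hes1, Heyl, Hey1, Nrarp, Abcc8 and Actg2 were added after their values were seen.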

Additional observations from a re-analysis of the deposited data

Results flagged for a closer look

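Over 27 groups of 4 libraries, 9 genes in 3 groups, the gap between an end library and its neighbour passed Dixon's 95% limit 3 times, and chance flags about 1 in 20 groups. All 3 were replicate 4 of SCI7 at the high end. Tagln stood at 150 CPM there, next to 46.5 CPM in the nearest SCI7 library, with a gap of 0.923 of the range. Cnn1 stood at 10.7 CPM, next to 2.09 CPM, with a gap of 0.861. Des stood at 12.2 CPM, next to 5.39 CPM, with a gap of 0.862.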

How the results depend on the processing

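Of 621 values of the members over 23 other settings, 555 kept their direction and their side of the threshold, 49 changed direction, 8 lost the call and 9 gained one. The call of Notch3 for OVX8_SCI7 against SCI7 was lost on log2(TPM + 1) and log2(TPM + 0.1), with adjusted p of 0.0682 and 0.0694, with the offset (-0.01), and in 6 of the 12 fits without a library. Members called there were 1 as reported, 2 with the stricter filter, DESeq2 or limma-voom, 3 with the 8 libraries alone or without replicates 1 and 2 of OVX2_SCI7, 0 with both TPM fits and the offset, and 0 to 2 when single libraries were left out. In the joint test they were 0 as reported, 1 with DESeq2, 2 without those replicates and 0 to 2 when single libraries were left out.

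Genes called for OVX8_SCI7 against SCI7 were 4893, and 3257 without the filter, 2973 and 2850 on log2(TPM + 1) and log2(TPM + 0.1), 7426 with the 8 libraries alone, 0 with the offset, 7720 without replicates 1 and 2 of OVX2_SCI7, and 0 to 6710 without single libraries (0 without replicate 2 of OVX8_SCI7). For OVX2_SCI7 against SCI7 they were 0, and 14 without the filter, 1144 with the stricter one, 3701 with DESeq2, 893 with limma-voom, 16 and 12 on log2(TPM + 1) and log2(TPM + 0.1), 2 with the 8 libraries alone, 8 with the offset, 7141 without those replicates, and 0 to 6264 without single libraries (6264 without replicate 1 of OVX2_SCI7). For OVX8_SCI7 against OVX2_SCI7 they were 0, 6 with DESeq2 and 0 to 1 without single libraries. In the joint test they were 2645, and 1370 without the filter, 5224 with DESeq2, 781 and 670 on the TPM scales, 0 with the offset, 7572 without those replicates, and 0 to 6058 without single libraries. The cause was not tested.

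Log2 fold changes that changed sign were, for OVX8_SCI7 against SCI7, Rgs5 at 0.01, Des at -0.25 and Notch3 at -0.01 with the offset, and Cnn1 at 0.13 with limma-voom. For OVX2_SCI7 against SCI7 they were Pdgfrb at -0.03, Abcc9 at 0.01 and Des at -0.35 with the offset, Cnn1 at 0.12 and Des at -0.09 with limma-voom, and Des at -0.06 and -0.11 on log2(TPM + 1) and log2(TPM + 0.1). For OVX8_SCI7 against OVX2_SCI7 they were Rgs5 at 0.04 and Notch3 at -0.03 with the offset, Rgs5 at 0.00, Tagln at 0.01 and Cnn1 at 0.02 with limma-voom, Rgs5 at 0.07 and 0.07, Tagln at 0.02 and 0.02 and Cnn1 at 0.11 and 0.15 on the TPM scales, and Pdgfrb at -0.17, Acta2 at -0.39 and Des at -0.45 without replicates 1 and 2 of OVX2_SCI7. Without single libraries, values that changed sign ranged for OVX8_SCI7 against SCI7 from -1.13 to 0.08 (Acta2), -0.85 to 0.08 (Tagln) and -0.93 to 0.77 (Cnn1), for OVX2_SCI7 against SCI7 from -0.20 to 0.56 (Pdgfrb), -0.87 to 0.13 (Tagln), -0.84 to 0.87 (Cnn1) and -0.16 to 0.60 (Des), and for OVX8_SCI7 against OVX2_SCI7 from -0.25 to 0.17 (Rgs5), -0.13 to 0.30 (Acta2), -0.23 to 0.24 (Tagln), -0.31 to 0.24 (Cnn1) and -0.13 to 0.47 (Des).

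Replicate numbers carried no stated pairing, and correlations of deviations between same-numbered libraries ran from -0.626 to 0.500. With a replicate block, 3390 genes passed for OVX8_SCI7 against SCI7, 1 of them a member (Notch3), 0 for OVX2_SCI7 against SCI7 and 0 in the joint test, and Cnn1 stood at 0.03 for OVX8_SCI7 against SCI7 and 0.09 for OVX8_SCI7 against OVX2_SCI7. Cnn1, with 13 to 212 counts in SCI7, is the member that depth limits most.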
